A study of Rattus norvegicus with 9 samples.

Results

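The insulin-like growth factor (IGF) genes were described across 3 types of cultured rat fibroblasts (Fb). The 10 genes were taken by symbol from the 32883 rows of the deposited tables and comprised 2 ligands (*Igf1* and *Igf2*), 2 receptors (*Igf1r* and *Igf2r*) and 6 binding proteins (*Igfbp2* to *Igfbp7*). RNA was sequenced from Fb of the epineurium, the outer sheath of the sciatic nerve (Fb-Epn), Fb of the nerve parenchyma beneath it (Fb-Par) and Fb of abdominal skin (Fb-Skn), with 3 libraries of each. The study set the types side by side to ask how Fb from nerve and from skin differ in their support of neurite outgrowth. All cells came from wild-type (WT) male Lewis rats aged 10 weeks, received no treatment and were sequenced after a single passage. The nerves came from 2 rats and the skin from 1 other rat. The 3 libraries of a type could therefore not all be separate animals, and p-values measured only the spread between these libraries, which may be technical. Tissue, body site and rat changed together between nerve and skin and cannot be told apart. Library totals ranged from 10084584 counts (Fb-Skn 2) to 12310506 counts (Fb-Epn 2).

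IGF1 and IGF2 are small secreted proteins related to insulin. Both act through the IGF1 receptor, a tyrosine kinase that drives growth and survival, while the IGF2 receptor has no kinase and carries IGF2 to lysosomes for breakdown. Secreted binding proteins hold the ligands in the fluid or matrix around the cells and either block them or deliver them, and proteases release them again; in peripheral nerve, IGFs are known to support the survival of neurons and Schwann cells and the growth of axons.

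The types differed far more in their binding proteins and in *Igf2* than in their receptors. Fb-Par had the highest levels of both ligands and of *Igfbp5*, *Igfbp6* and *Igfbp7*, and the lowest level of *Igfbp3*. Both nerve types had more *Igfbp4*, *Igfbp5* and *Igfbp6* than Fb-Skn, whereas *Igfbp2* was nearly absent from Fb-Epn. Levels are given as TPM (transcript abundance scaled for gene length and for the library total), and differences as log2 fold changes ± standard error from edgeR's quasi-likelihood test on the counts. A gene was called where its Benjamini-Hochberg adjusted p over the 13273 genes tested was below 0.01. The 3 comparisons shared their libraries and were not independent of each other.

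**Figure D1:**
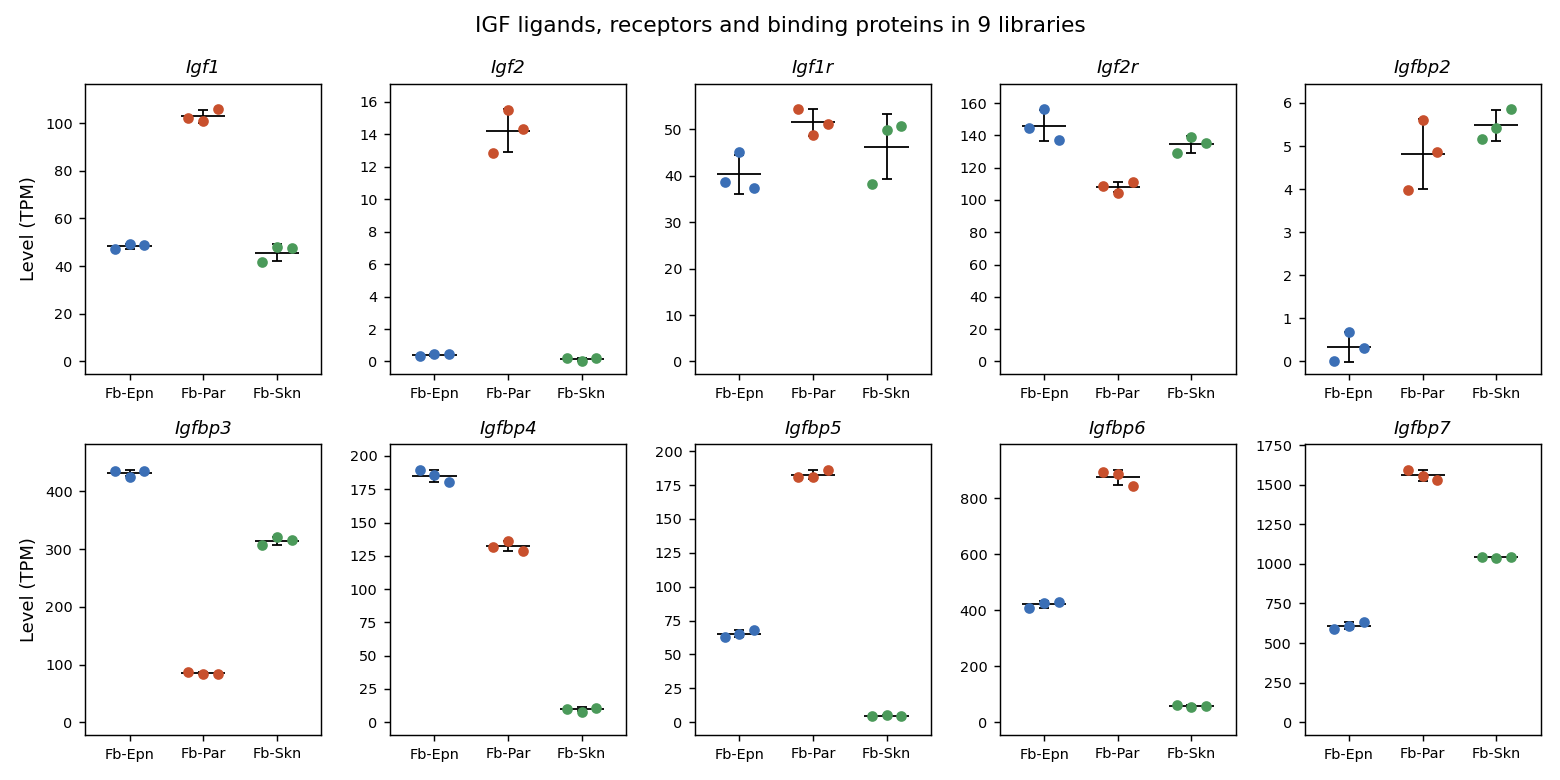
Level of each of the 10 genes in TPM (vertical axes, a separate linear scale for each gene) in Fb-Epn (blue), Fb-Par (red) and Fb-Skn (green). Each point is 1 library, the horizontal line is the mean and the bar is 1 SD (n = 3); *Igf2* reached 12.8 TPM or more in Fb-Par only, and *Igfbp4*, *Igfbp5* and *Igfbp6* were lowest in Fb-Skn.

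*Igf1*, the ligand made by liver under growth hormone and by many connective tissue cells for local use, is the gene ENSRNOG00000004517 at chr7:28412198-28486609 of the rn6 genome. Its level was 47.1, 49.2 and 48.7 TPM in Fb-Epn 1, 2 and 3, 102, 101 and 106 TPM in Fb-Par, and 41.7, 47.9 and 47.5 TPM in Fb-Skn. The Fb-Par libraries were all above the others, and those of Fb-Epn and Fb-Skn overlapped. *Igf1* was 2.11-fold higher in Fb-Par than Fb-Epn (log2 fold change of Fb-Epn over Fb-Par -1.08 ± 0.06, adjusted p = 7.4e-10). Against Fb-Skn it was 2.03-fold higher in Fb-Par (1.02 ± 0.06, adjusted p = 1.2e-09). Between Fb-Epn and Fb-Skn the log2 fold change was -0.06 ± 0.06, with a 95% interval from -0.19 to 0.07 (adjusted p = 0.44). In these bulk samples, fewer cells of a type that make a transcript and less of it per cell cannot be told apart.

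*Igf2*, the ligand best known from fetal growth and an imprinted gene, is ENSRNOG00000020369 at chr1:215828102-215846911 on the minus strand. The Fb-Par libraries held 12.8, 15.5 and 14.3 TPM of *Igf2*, from 397, 415 and 404 counts. In Fb-Epn the level was 0.353, 0.468 and 0.454 TPM, from 10, 15 and 13 counts. In Fb-Skn it was 0.195, 0.0373 and 0.185 TPM, from 6, 1 and 5 counts. *Igf2* was thus a low transcript in Fb-Par and close to the limit of detection in both other types, and no library of one type overlapped with those of another. The level in Fb-Par was 32.8-fold above that in Fb-Epn (log2 fold change of Fb-Epn over Fb-Par -5.03 ± 0.20, adjusted p = 2.1e-11). It was 87.9-fold above that in Fb-Skn (6.46 ± 0.24, adjusted p = 8.6e-12). Both sizes depended on the near-zero levels: the log2 fold changes were -3.42 and 3.74 on the log2(TPM + 1) scale and -2.72 and 2.92 on the log2(FPKM + 1) scale, and both calls held. The difference between Fb-Epn and Fb-Skn, 1.42 ± 0.38 (adjusted p = 0.0057), rested on totals of 38 and 12 counts. That call was lost in 7 of its 19 alternatives, over which the adjusted p ranged from 0.0038 to 0.09. It was lost without Fb-Skn 2 (1.00, adjusted p = 0.055), Fb-Epn 2 (1.34, adjusted p = 0.021) or Fb-Epn 3 (1.39, adjusted p = 0.016). It was also lost with limma on log2(TPM + 1) (0.33, adjusted p = 0.037) and on log2(FPKM + 1) (0.19, adjusted p = 0.09). The other losses came with only the 6 libraries compared (1.43, adjusted p = 0.034) and with the replicate block (1.41, adjusted p = 0.01).

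Added together, the ligands reached 48.7 ± 1.19 TPM in Fb-Epn, 117 ± 2.86 TPM in Fb-Par and 45.8 ± 3.46 TPM in Fb-Skn (mean ± SD, n = 3). The Fb-Par libraries did not overlap with either other type, for which an exact two-sided permutation test of 3 against 3 libraries gave its smallest possible p of 0.10; between Fb-Epn and Fb-Skn the exact permutation p was 0.30. *Igf1* made up most of the ligand transcripts in every library. *Igf2* contributed 12.2 ± 1.10% of them in Fb-Par, 0.870 ± 0.109% in Fb-Epn and 0.310 ± 0.205% in Fb-Skn (mean ± SD, n = 3).

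The receptors varied little between the types. *Igf1r*, the receptor kinase (ENSRNOG00000014187, chr1:128924966-129206516), was at 38.6, 45.1 and 37.4 TPM in Fb-Epn, 54.4, 48.8 and 51.2 TPM in Fb-Par, and 38.2, 49.8 and 50.8 TPM in Fb-Skn. Fb-Skn 1 lay within the Fb-Epn libraries and the other Fb-Skn libraries lay with Fb-Par, so that Fb-Skn overlapped with both nerve types. *Igf1r* was 1.27-fold lower in Fb-Epn than Fb-Par (log2 fold change -0.34 ± 0.09, adjusted p = 0.0067) and 1.26-fold lower than in Fb-Skn (-0.33 ± 0.09, adjusted p = 0.0075). Neither call was firm. Without 1 library, Fb-Epn against Fb-Skn was lost for 7 of the 9 libraries, namely Fb-Epn 1 and 3, Fb-Skn 2 and 3 and each of Fb-Par. It was lost in 12 of 20 alternatives in all, and its adjusted p ranged from 6.4e-05 to 0.19. Fb-Epn against Fb-Par was lost in 7 of 20 alternatives: without Fb-Epn 1 or 3 or Fb-Par 1 or 3, and with limma on log2(TPM + 1), log2(TPM + 0.1) and log2(FPKM + 1), with an adjusted p of up to 0.034. For Fb-Par over Fb-Skn the 95% interval ran from -0.19 to 0.21 (adjusted p = 0.94).

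*Igf2r*, which clears IGF2 and also sorts lysosomal enzymes (ENSRNOG00000014997, chr1:48176106-48264477), was at 145, 156 and 137 TPM in Fb-Epn, 109, 105 and 111 TPM in Fb-Par, and 129, 139 and 136 TPM in Fb-Skn. All Fb-Par libraries were below the rest, and Fb-Epn and Fb-Skn overlapped. The level was 1.36-fold higher in Fb-Epn than Fb-Par (0.45 ± 0.04, adjusted p = 7.9e-07) and 1.38-fold higher in Fb-Skn than Fb-Par (log2 fold change of Fb-Par over Fb-Skn -0.47 ± 0.04, adjusted p = 4.1e-07). Fb-Epn over Fb-Skn gave -0.02 ± 0.04, with a 95% interval from -0.11 to 0.07 (adjusted p = 0.72). The TPM ratio of *Igf2r* to *Igf1r* was 3.75, 3.46 and 3.66 in the Fb-Epn libraries, 2.00, 2.14 and 2.16 in those of Fb-Par, and 3.38, 2.79 and 2.67 in those of Fb-Skn, so that Fb-Par, the type with the most *Igf2*, had the lowest ratio. The libraries of the 3 types did not overlap in this ratio, with the smallest possible p of 0.10 by the exact permutation test for each pair.

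*Igfbp2*, a binding protein that can also attach to integrins (ENSRNOG00000016957, chr9:80118029-80144789), was the least abundant of the family in Fb-Epn and Fb-Par. Fb-Epn had 0, 0.688 and 0.307 TPM, from 0, 5 and 2 counts, and a count of 0 in Fb-Epn 1 allowed a level of up to 0.467 TPM (3 counts, counting error only). The level was 3.99, 5.60 and 4.85 TPM in Fb-Par and 5.16, 5.42 and 5.86 TPM in Fb-Skn, from 28 to 36 counts a library. Fb-Epn was below every other library, and Fb-Par and Fb-Skn overlapped. *Igfbp2* was 16.6-fold lower in Fb-Epn than Fb-Skn (-4.05 ± 0.48, adjusted p = 5.5e-06) and 13.1-fold lower than in Fb-Par (-3.72 ± 0.49, adjusted p = 1.8e-05). The sizes depended on few counts: without Fb-Epn 2 they became -5.12 and -4.78, on the log2(TPM + 1) scale -2.31 and -2.15, and on the log2(FPKM + 1) scale -1.61 and -1.29, below the size of 2 used as a limit further on. For Fb-Par over Fb-Skn the 95% interval ran from -1.06 to 0.38 (adjusted p = 0.41).

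*Igfbp3*, the main carrier of IGFs in blood and a secreted product of many mesenchymal cells (ENSRNOG00000061910, chr14:87457647-87465374, minus strand), was high in Fb-Epn and Fb-Skn and low in Fb-Par. Its level was 436, 426 and 435 TPM in Fb-Epn, 87.8, 84.1 and 83.5 TPM in Fb-Par, and 307, 320.4 and 316 TPM in Fb-Skn. No library of one type overlapped with another type. Fb-Epn was 5.11-fold above Fb-Par (2.35 ± 0.03, adjusted p = 3.1e-16) and 1.25-fold above Fb-Skn (0.32 ± 0.03, adjusted p = 5.6e-07). Fb-Par was 4.10-fold below Fb-Skn (-2.04 ± 0.03, adjusted p = 1.1e-15).

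*Igfbp4* encodes a binding protein that mostly inhibits IGFs until pappalysin cuts it (ENSRNOG00000010635, chr10:86950557-86962578). It was at 189, 186 and 181 TPM in Fb-Epn, 131, 136 and 129 TPM in Fb-Par, and 10.3, 8.02 and 11.0 TPM in Fb-Skn. The order Fb-Epn, Fb-Par, Fb-Skn held without overlap, and the nerve types stood well above Fb-Skn. *Igfbp4* was 17.1-fold higher in Fb-Epn than Fb-Skn (4.10 ± 0.08, adjusted p = 6.2e-15) and 12.1-fold higher in Fb-Par than Fb-Skn (3.60 ± 0.08, adjusted p = 2.4e-14). The nerve types differed by 1.41-fold (0.50 ± 0.06, adjusted p = 4.1e-06).

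*Igfbp5*, the most conserved of the family and one that binds the extracellular matrix (ENSRNOG00000017206, chr9:80150211-80167033, minus strand), was at 62.6, 65.3 and 68.1 TPM in Fb-Epn, 181, 181 and 186 TPM in Fb-Par, and 4.79, 5.16 and 4.80 TPM in Fb-Skn. Fb-Par was highest and Fb-Skn lowest, with no overlap. The level in Fb-Par was 33.5-fold above that in Fb-Skn (5.07 ± 0.05, adjusted p = 6.8e-18) and 2.77-fold above that in Fb-Epn (log2 fold change of Fb-Epn over Fb-Par -1.47 ± 0.04, adjusted p = 2.5e-13). Fb-Epn was 12.1-fold above Fb-Skn (3.59 ± 0.05, adjusted p = 4.1e-16). The order of *Igfbp3* was the opposite between Fb-Par and the rest, and the TPM ratio of *Igfbp3* to *Igfbp5* was 0.466 ± 0.0188 for Fb-Par, 6.62 ± 0.296 for Fb-Epn and 64.1 ± 1.94 for Fb-Skn (mean ± SD, n = 3; exact permutation p = 0.10, the smallest possible, for each pair).

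*Igfbp6*, which binds IGF2 in preference to IGF1 (ENSRNOG00000010977, chr7:143749221-143754054), followed the same order as *Igfbp5*. The libraries held 407, 428 and 428 TPM in Fb-Epn, 895, 885 and 843 TPM in Fb-Par, and 60.9, 54.5 and 57.7 TPM in Fb-Skn. The types did not overlap. Fb-Par was 13.6-fold above Fb-Skn (3.77 ± 0.05, adjusted p = 1.6e-16) and 2.06-fold above Fb-Epn (log2 fold change of Fb-Epn over Fb-Par -1.05 ± 0.04, adjusted p = 4.5e-11), and Fb-Epn was 6.60-fold above Fb-Skn (2.72 ± 0.05, adjusted p = 7.9e-15).

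*Igfbp7*, a matrix-associated relative that binds IGFs only weakly (ENSRNOG00000002050, chr14:33010300-33070190), was the most abundant of the 10 genes in every library. It was at 590.2, 609.8 and 632 TPM in Fb-Epn, 1595, 1554 and 1527 TPM in Fb-Par, and 1046, 1036 and 1042 TPM in Fb-Skn. Unlike *Igfbp4*, *Igfbp5* and *Igfbp6*, it was lowest in Fb-Epn, and the types did not overlap. *Igfbp7* was 2.53-fold lower in Fb-Epn than Fb-Par (-1.34 ± 0.03, adjusted p = 1.4e-13) and 1.88-fold lower than in Fb-Skn (-0.91 ± 0.03, adjusted p = 9.2e-12). It was 1.35-fold higher in Fb-Par than Fb-Skn (0.43 ± 0.03, adjusted p = 3.4e-08). By mean TPM it ranked 70th of 32883 genes in Fb-Par, 129th in Fb-Skn and 223rd in Fb-Epn.

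**Figure D2:**
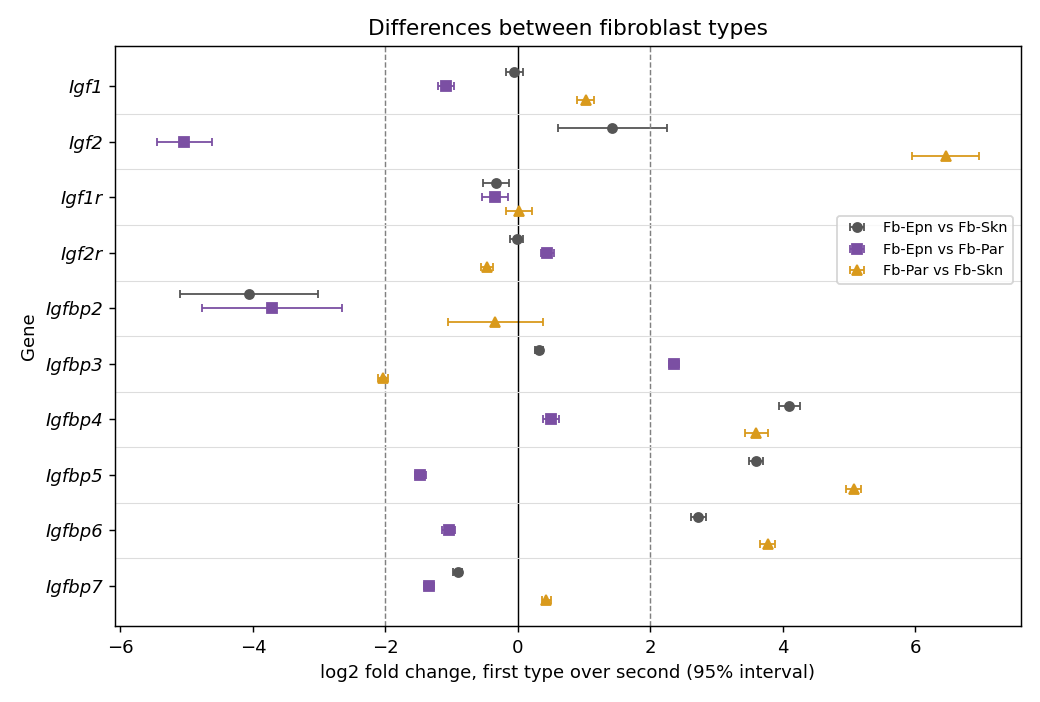
Log2 fold change of the first type over the second (horizontal axis) with its 95% interval for each of the 10 genes (vertical axis) in the 3 comparisons. The dashed lines mark log2 fold changes of -2 and 2; the widest intervals belong to *Igf2* and *Igfbp2*, which had the fewest counts.

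The binding protein transcripts together came to 1715 ± 29.9 TPM in Fb-Epn, 2838 ± 61.1 TPM in Fb-Par and 1434 ± 4.17 TPM in Fb-Skn (mean ± SD, n = 3). No type overlapped with another, and the exact permutation p was 0.10, the smallest possible, for each pair. Their makeup differed more than their sum. In Fb-Epn, *Igfbp7* (35.6 ± 0.606%), *Igfbp3* (25.2 ± 0.564%) and *Igfbp6* (24.5 ± 0.401%) shared most of the total, with 10.8 ± 0.449% from *Igfbp4*. In Fb-Par, *Igfbp7* (54.9 ± 0.286%) and *Igfbp6* (30.8 ± 0.378%) led, and *Igfbp3* made up only 3.00 ± 0.0408%. In Fb-Skn, *Igfbp7* (72.6 ± 0.256%) and *Igfbp3* (21.9 ± 0.498%) made up nearly everything. Without *Igfbp7*, the weak binder, the sums were 1104 TPM in Fb-Epn, 1279 TPM in Fb-Par and 393 TPM in Fb-Skn, and the gap between the nerve types became small beside that to Fb-Skn. Ligand transcripts amounted to 4.13 ± 0.190% of the binding protein transcripts in Fb-Par, 3.20 ± 0.242% in Fb-Skn and 2.84 ± 0.0479% in Fb-Epn. These shares include *Igfbp7*, and their order depended on it. The mean ligand sums were 48.7, 117 and 45.8 TPM in Fb-Epn, Fb-Par and then Fb-Skn. Relative to the sums without *Igfbp7*, they were largest in Fb-Skn and smallest in Fb-Epn.

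**Figure D3:**
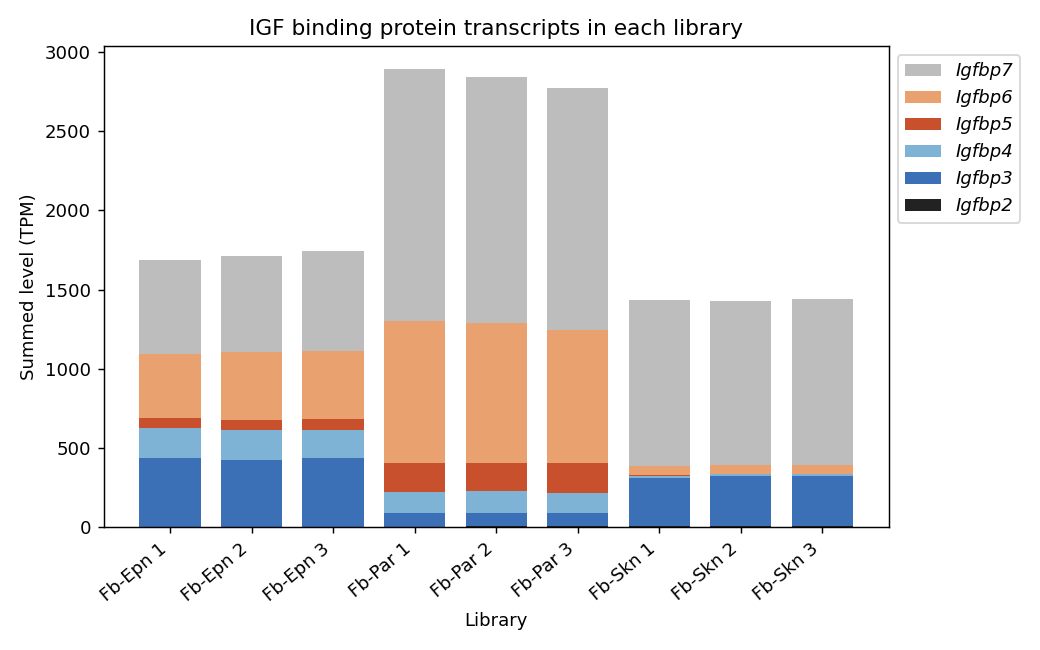
Summed TPM of the 6 binding protein genes (vertical axis, from 0) in each of the 9 libraries, with a coloured segment for each gene. The bars reach 2773 to 2894 TPM in Fb-Par, 1684 to 1744 TPM in Fb-Epn and 1429.9 to 1438 TPM in Fb-Skn, and the segments of *Igfbp4*, *Igfbp5* and *Igfbp6* nearly vanish in Fb-Skn.

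Each of the 10 genes passed the filter on low counts and was tested. In Fb-Epn against Fb-Skn, 8 of the 10 were called, 5 higher and 3 lower in Fb-Epn; of all tested genes 43.9% were called, 23.0% higher and 20.9% lower. In Fb-Epn against Fb-Par, 10 of 10 were called, 3 higher and 7 lower in Fb-Epn, against 38.8% of all tested genes (20.2% higher and 18.6% lower). In Fb-Par against Fb-Skn, 8 of 10 were called, 6 higher and 2 lower in Fb-Par, against 45.6% (23.2% higher and 22.4% lower). The near-even split over all genes against Fb-Skn depended on scaling: from 3052 higher and 2778 lower for Fb-Epn it became 3715 and 2113 with library size only and 3845 and 1731 on log2(TPM + 1). For Fb-Par it went from 3077 and 2975 to 3737 and 2297, and to 3902 and 1931. A log2 fold change beyond 2 in either direction was reached by 4 genes between Fb-Epn and Fb-Skn (*Igfbp2*, *Igfbp4*, *Igfbp5* and *Igfbp6*), against 8.44% of all tested genes. It was reached by 3 genes between Fb-Epn and Fb-Par (*Igf2*, *Igfbp2* and *Igfbp3*), against 6.48%, and by 5 genes between Fb-Par and Fb-Skn (*Igf2*, *Igfbp3*, *Igfbp4*, *Igfbp5* and *Igfbp6*), against 8.54%. The median absolute log2 fold change of the 10 genes was 1.17, 1.21 and 1.53 in the order Fb-Epn against Fb-Skn, Fb-Epn against Fb-Par and Fb-Par against Fb-Skn. Over all tested genes it was 0.33, 0.28 and 0.34.

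Beyond the 10 genes, 57 further genes of the pathway were listed, of which 56 were matched and 49 could be tested. Of these, 30 were called between Fb-Epn and Fb-Skn (19 higher and 11 lower in Fb-Epn), a split of 22 and 7 when libraries were scaled by size only. Between Fb-Epn and Fb-Par 25 were called (12 higher and 13 lower in Fb-Epn), and between Fb-Par and Fb-Skn 31 (21 higher and 10 lower in Fb-Par). These were 61.2%, 51.0% and 63.3% of those tested in the order Fb-Epn against Fb-Skn, Fb-Epn against Fb-Par and Fb-Par against Fb-Skn, beside 43.9%, 38.8% and 45.6% of all tested genes. Their median absolute log2 fold change was 0.29, 0.32 and 0.48, beside 0.33, 0.28 and 0.34 over all tested genes.

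Of a list on IGF supply (other binding proteins, their partners and receptors, proteases, protease inhibitors and proteins that bind *Igf2* mRNA), 10 of 14 were tested and 7, 9 and 9 were called in the 3 comparisons, against 43.9%, 38.8% and 45.6% of all tested genes. Their median absolute log2 fold change was 0.51, 1.95 and 0.91, widest between the nerve types. *Pappa*, the pappalysin protease that cuts IGFBP4, was at 52.7, 52.5 and 48.1 TPM in Fb-Epn, 10.1, 13.7 and 10.8 TPM in Fb-Par, and 22.4, 30.8 and 31.2 TPM in Fb-Skn. Fb-Epn was thus highest and Fb-Par lowest, 4.47-fold apart (2.16 ± 0.12, adjusted p = 1.0e-09). *Pappa2*, its relative that cuts IGFBP3 and IGFBP5, was at 1.78, 1.65 and 1.86 TPM in Fb-Epn, 0.134, 0.177 and 0.0842 TPM in Fb-Par, and 9.43, 10.7 and 11.2 TPM in Fb-Skn. It was 86.4-fold lower in Fb-Par than Fb-Skn (-6.43 ± 0.16, adjusted p = 1.3e-13), from 19 counts in all Fb-Par libraries together.

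The stanniocalcins, secreted inhibitors of pappalysins, were low in Fb-Par as well. *Stc2* was at 115, 115 and 121 TPM in Fb-Epn, 7.03, 7.58 and 7.98 TPM in Fb-Par, and 128, 132 and 131 TPM in Fb-Skn. It was 15.6-fold higher in Fb-Epn than Fb-Par (3.96 ± 0.07, adjusted p = 2.6e-15). *Stc1* averaged 14.9 ± 1.09 TPM in Fb-Epn, 3.54 ± 0.418 TPM in Fb-Par and 13.0 ± 1.34 TPM in Fb-Skn, 4.22-fold higher in Fb-Epn than Fb-Par (2.08 ± 0.12, adjusted p = 2.3e-09). In Fb-Par the pappalysin and the stanniocalcin transcripts were thus both low.

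*Adam12*, a metalloprotease that can cut IGFBP3 and IGFBP5, was high in Fb-Epn alone, at 507, 541 and 482 TPM, against 141, 147 and 149.5 TPM in Fb-Par and 140.4, 165 and 165 TPM in Fb-Skn. It was 3.52-fold higher in Fb-Epn than Fb-Par (1.82 ± 0.05, adjusted p = 1.1e-12). *Htra1*, a secreted serine protease that can cut IGFBP5 and the most abundant of this list in Fb-Skn and over all 9 libraries, averaged 480.1 ± 14.5 TPM in Fb-Epn, 549 ± 7.74 TPM in Fb-Par and 829 ± 23.7 TPM in Fb-Skn. It was 1.90-fold lower in Fb-Epn than Fb-Skn (-0.93 ± 0.04, adjusted p = 1.5e-11). Of the proteins that bind *Igf2* mRNA, *Igf2bp3* was highest in Fb-Par (9.76 ± 0.367 TPM, against 1.81 ± 0.262 TPM in Fb-Epn and 5.41 ± 1.05 TPM in Fb-Skn). *Igf2bp2* was lowest there (4.48 ± 0.462 TPM, against 10.6 ± 1.31 TPM in Fb-Epn and 8.51 ± 0.387 TPM in Fb-Skn). *Igfbp1* had 0 counts in all 9 libraries, and *Igfbpl1*, *Igfals* and *Igf2bp1* had too few counts to be tested.

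The insulin receptor gene *Insr*, whose product can pair with the IGF1 receptor, averaged 15.1 ± 0.127 TPM in Fb-Epn, 14.6 ± 0.327 TPM in Fb-Par and 6.78 ± 0.656 TPM in Fb-Skn. It was 2.02-fold higher in Fb-Epn than Fb-Skn (1.01 ± 0.07, adjusted p = 2.6e-08) and 1.93-fold higher in Fb-Par than Fb-Skn (0.95 ± 0.07, adjusted p = 5.1e-08). Both insulin genes had 0 counts in every library, and *Insrr* had too few to be tested.

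Of the chain that carries the signal inside the cell, 32 genes were tested and 19, 14 and 18 were called in the 3 comparisons (59.4%, 43.8% and 56.2%, beside the same shares of all tested genes, 43.9%, 38.8% and 45.6%), mostly with small differences. Their median absolute log2 fold change was 0.26, 0.24 and 0.29, below that of all tested genes in each comparison. Fb-Par had the most of both docking proteins: *Irs1* was at 10.7 ± 0.449 TPM there, 7.41 ± 0.477 TPM in Fb-Epn and 4.36 ± 0.174 TPM in Fb-Skn. *Irs2* was at 32.0 ± 0.283 TPM in Fb-Par, 15.0 ± 1.20 TPM in Fb-Epn and 12.7 ± 1.05 TPM in Fb-Skn. *Grb14*, an adaptor that dampens receptor signalling, had the reverse order, with 33.1 ± 0.715 TPM in Fb-Par against 79.6 ± 5.06 TPM in Fb-Epn and 91.5 ± 6.20 TPM in Fb-Skn. It was 2.42-fold higher in Fb-Epn than Fb-Par (1.28 ± 0.07, adjusted p = 2.4e-09).

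*Foxo1*, a transcription factor that AKT keeps out of the nucleus, was 3.29-fold higher in Fb-Par than Fb-Epn (54.5 ± 1.19 against 16.4 ± 1.03 TPM; log2 fold change of Fb-Epn over Fb-Par -1.72 ± 0.07, adjusted p = 3.5e-11). Its relative *Foxo3* was instead highest in Fb-Epn, at 28.4 ± 0.147 TPM against 18.6 ± 2.08 TPM in Fb-Par and 11.0 ± 1.15 TPM in Fb-Skn. The phosphoinositide 3-kinase subunit gene *Pik3r3* was at 21.1 ± 1.06, 35.8 ± 1.04 and 12.6 ± 0.816 TPM in Fb-Epn, Fb-Par and then Fb-Skn. The catalytic subunit gene *Pik3cb* was low, at 2.37 ± 0.215, 2.00 ± 0.568 and 0.936 ± 0.220 TPM in the same order. *Eif4ebp1*, a repressor of translation and the most abundant of this list, was at 289 ± 12.8, 217 ± 11.0 and 365 ± 7.82 TPM.

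In the growth hormone axis, which controls *Igf1* in liver, 6 genes were tested and 3, 2 and 3 were called (50.0%, 33.3% and 50.0%, near the 43.9%, 38.8% and 45.6% of all tested genes). *Jak2*, the kinase of the growth hormone receptor, was the most abundant of them. Its level was 67.4 ± 2.55 TPM in Fb-Epn, 34.3 ± 2.09 TPM in Fb-Par and 47.7 ± 2.00 TPM in Fb-Skn. The mean TPM of *Ghr*, *Stat5b* and *Socs2* was instead highest in Fb-Par, that of *Stat5a* in Fb-Epn and that of *Cish* in Fb-Skn. Only *Stat5b* was called higher in Fb-Par than in both other types (adjusted p = 0.0021 against Fb-Epn and 6.8e-04 against Fb-Skn). Of 12 other imprinted genes listed, 8 were tested and 7, 6 and 7 were called, in both directions (87.5%, 75.0% and 87.5%, beside the same shares of all tested genes). *Sgce*, a sarcoglycan and the most abundant of them, was highest in Fb-Par (94.3 ± 1.93, 153 ± 3.66 and 104 ± 2.52 TPM in Fb-Epn, Fb-Par and then Fb-Skn). The zinc finger gene *Plagl1* was highest in Fb-Par too (19.2 ± 0.450, 24.7 ± 1.78 and 13.4 ± 1.47 TPM). The cell cycle inhibitor gene *Cdkn1c* was lowest in Fb-Par (31.6 ± 2.72, 5.21 ± 1.52 and 12.9 ± 1.33 TPM). *Dlk1*, an inhibitor of fat cell formation, went from 8.21 ± 1.21 to 1.74 ± 0.496 to 0.174 ± 0.302 TPM, and only 1 Fb-Skn library held any count of it. *Mest* followed the same order (10.1 ± 0.536, 3.75 ± 0.649 and 0.927 ± 0.262 TPM), and *Peg3* (22.8 ± 0.576, 31.7 ± 0.448 and 43.9 ± 3.73 TPM) and the amino acid transporter gene *Slc38a4* (3.23 ± 0.222, 4.05 ± 0.154 and 5.98 ± 0.836 TPM) were highest in Fb-Skn.

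The fibroblast label held in every library: 7 of 7 fibroblast markers were expressed, led by *Col1a1*, with summed levels from 28939 to 37982 TPM. Markers of other cell types moved with the IGF genes, and their part in the differences was not tested. For scale, 23.0% of all tested genes were called higher in Fb-Epn than Fb-Skn, and 20.2% higher and 18.6% lower in Fb-Epn than Fb-Par. Among Schwann cell markers, *S100b* was at 121, 137 and 132 TPM in Fb-Epn, 117, 125 and 116 TPM in Fb-Par, and 7.79, 9.21 and 6.88 TPM in Fb-Skn. *Ngfr* was at 33.9, 31.0 and 29.8 TPM in Fb-Epn, 63.4, 62.0 and 65.8 TPM in Fb-Par, and 0.790, 0.646 and 0.705 TPM in Fb-Skn. Both were high in the nerve types, where *Igfbp4*, *Igfbp5* and *Igfbp6* were high, and both were called against Fb-Skn for Fb-Epn (adjusted p = 7.8e-14 and 2.4e-14) and for Fb-Par (adjusted p = 1.1e-13 and 1.3e-15). Between the nerve types, *Ngfr* was 2.01-fold higher in Fb-Par (adjusted p = 3.4e-09), as *Igf1*, *Igf2*, *Igfbp5* and *Igfbp6* were, and *S100b* was not called (0.13 ± 0.07, adjusted p = 0.11). *Sox10*, *Erbb3* and *Cdh19* were also called higher in Fb-Par than Fb-Epn and had 0 counts in Fb-Skn. The 7 pericyte or smooth muscle markers summed to 48.8, 50.7 and 43.6 TPM in Fb-Epn, 319, 336 and 326 TPM in Fb-Par, and 149.9, 155 and 153 TPM in Fb-Skn, led by *Myh11*, with *Rgs5* and *Kcnj8* at 0 counts in Fb-Skn. Their sums were highest in Fb-Par, as both ligands were, and had the same order of types as *Igfbp7*; 4 of 7 were called lower in Fb-Epn than Fb-Par, although 5 of 7 were called higher in Fb-Epn than Fb-Skn.

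The 7 macrophage or leukocyte markers summed to 236, 241 and 263 TPM in Fb-Epn, 57.6, 58.4 and 60.8 TPM in Fb-Par, and 16.8, 15.9 and 13.7 TPM in Fb-Skn, led by *Cd68*, with *Cd3e* at 0 counts throughout. All 6 tested were called higher in Fb-Epn than in either other type, as were *Igfbp3* and *Igfbp4*. The 5 perineurial markers summed to 211, 211 and 216 TPM in Fb-Epn, 87.1, 91.0 and 94.7 TPM in Fb-Par, and 113, 125 and 121 TPM in Fb-Skn. This order, which *Igfbp3* also had, was led by *Slc2a1* (145 ± 3.60, 34.9 ± 2.55 and 69.0 ± 4.63 TPM in Fb-Epn, Fb-Par and then Fb-Skn). *Itgb4* had the same order (13.7 ± 0.0942, 8.51 ± 0.223 and 11.2 ± 0.189 TPM), although it was not called between Fb-Epn and Fb-Skn (adjusted p = 0.045). *Tjp1*, the most abundant of them in Fb-Par, had another order (54.0 ± 0.670, 47.2 ± 1.19 and 39.7 ± 1.53 TPM), and *Cldn1* had 5, 16 and 0 counts. Of the perineurial markers, 3 of 3 tested were called higher in Fb-Epn than Fb-Par, and *Lypd2* had 0 counts throughout. The 5 adipocyte markers summed to 51.8 ± 7.09 TPM in Fb-Epn, 16.6 ± 0.412 TPM in Fb-Par and 1.33 ± 0.105 TPM in Fb-Skn, nearly all in the nerve types from *Fabp4*. *Lep* went the other way, with 36 counts in Fb-Skn and 0 in both nerve types, and *Cidec* had 0 counts throughout. The 7 endothelial markers matched summed to between 24.3 and 37.1 TPM in every library, led by *Egfl7*, which was highest in Fb-Skn. Of the 5 tested, 4 were called higher in Fb-Epn than Fb-Skn, as *Igfbp4*, *Igfbp5* and *Igfbp6* were, with *Tek* at 8.37 ± 0.373, 10.2 ± 0.552 and 1.20 ± 0.261 TPM in Fb-Epn, Fb-Par and then Fb-Skn. *Cdh5* and *Emcn* had 0 counts in Fb-Skn. Between the nerve types, 2 of the 5 tested were called higher in Fb-Epn and 0 lower, against 20.2% and 18.6% of all tested genes. These were *Cdh5* (17.3-fold, adjusted p = 5.1e-06, from 6 counts in Fb-Par) and *Tie1* (6.19-fold, adjusted p = 9.0e-07). The 6 keratinocyte markers summed to between 2.51 and 4.76 TPM in every library, led by *Krt10*; *Krt14* had 36 counts in Fb-Skn, 0 in Fb-Epn and 1 in Fb-Par.

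By position, *Igfbp2* and *Igfbp5* are neighbours on chromosome 9 that face each other end to end, 5422 bases apart, yet their levels had different orders: *Igfbp5* was lowest in Fb-Skn and *Igfbp2* in Fb-Epn. *Igfbp1* lies 3862 bases from *Igfbp3* and had no count. *Ins2*, 10060 bases from *Igf2*, had none either. *Igfbp7* shares 113 bases with *Polr2b* on the opposite strand and encloses LOC103693375, also on the opposite strand. How strand was treated in counting is not given in the sources used here, so reads of these overlaps cannot be assigned with certainty. *Polr2b* averaged 51.6, 65.4 and 49.0 TPM in Fb-Epn, Fb-Par and then Fb-Skn, far below *Igfbp7*.

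Promoter sequences of the 250 bases before the gene start were taken from RefSeq (GRCr8) for 10 of 10 genes, in 11 windows since *Igf2* has 2 starts. They were searched on both strands for TATAAA (12.9% of 33469 rat promoters of this length hold it), CCAAT (34.0%), GGGCGG (30.5%), CACGTG (5.59%) and TGANTCA (6.34%). *Igfbp4* alone held TATAAA, 40 bases before its start. GGGCGG was found in *Igf2r* (2 matches), *Igf1r*, *Igfbp2*, the downstream start of *Igf2* and *Igfbp7* (4 matches). CACGTG was found in *Igf2r* (2 matches), *Igf1r* and *Igfbp2*, and CCAAT and TGANTCA in none. No match overlapped another. A match is a description of the letters only, and which start these cells used was not measured. The windows of *Igfbp4*, *Igfbp5* and *Igfbp6*, the genes beyond a log2 fold change of 2 against Fb-Skn in both nerve types, are shown, with those of both *Igf2* starts and of *Igfbp7*, the most abundant gene. Capitals mark matches. The GRCr8 positions are chr1:207253981-207254230 and chr1:207250476-207250725 (minus strand) for *Igf2*, chr10:84491221-84491470 (plus strand) for *Igfbp4*, chr9:81914188-81914437 (minus strand) for *Igfbp5*, chr7:135154669-135154918 (plus strand) for *Igfbp6* and chr14:31091486-31091735 (plus strand) for *Igfbp7*.
Igf2, upstream start: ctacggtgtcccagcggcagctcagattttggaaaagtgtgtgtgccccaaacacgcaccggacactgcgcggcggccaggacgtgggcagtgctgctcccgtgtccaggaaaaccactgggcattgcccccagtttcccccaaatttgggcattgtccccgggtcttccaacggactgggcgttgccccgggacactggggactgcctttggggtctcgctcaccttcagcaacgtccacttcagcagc
Igf2, downstream start: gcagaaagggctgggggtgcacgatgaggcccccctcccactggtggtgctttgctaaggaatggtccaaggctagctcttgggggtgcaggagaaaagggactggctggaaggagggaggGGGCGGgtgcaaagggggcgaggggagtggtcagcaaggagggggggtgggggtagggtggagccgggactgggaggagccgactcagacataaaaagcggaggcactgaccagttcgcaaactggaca
Igfbp4: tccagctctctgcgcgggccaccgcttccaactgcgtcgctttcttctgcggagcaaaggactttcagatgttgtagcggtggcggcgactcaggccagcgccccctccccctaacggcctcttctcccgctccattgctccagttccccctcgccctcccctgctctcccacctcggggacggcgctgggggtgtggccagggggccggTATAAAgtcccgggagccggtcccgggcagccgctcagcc
Igfbp5: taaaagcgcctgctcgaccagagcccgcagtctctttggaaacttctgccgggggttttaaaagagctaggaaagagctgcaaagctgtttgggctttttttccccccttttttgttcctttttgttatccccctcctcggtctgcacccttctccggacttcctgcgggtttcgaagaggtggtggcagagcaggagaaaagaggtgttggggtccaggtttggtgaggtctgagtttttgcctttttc
Igfbp6: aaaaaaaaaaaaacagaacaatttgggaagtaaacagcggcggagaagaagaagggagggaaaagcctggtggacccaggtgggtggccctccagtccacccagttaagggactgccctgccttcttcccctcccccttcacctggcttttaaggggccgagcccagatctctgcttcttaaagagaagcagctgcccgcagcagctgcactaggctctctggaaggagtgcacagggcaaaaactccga
Igfbp7: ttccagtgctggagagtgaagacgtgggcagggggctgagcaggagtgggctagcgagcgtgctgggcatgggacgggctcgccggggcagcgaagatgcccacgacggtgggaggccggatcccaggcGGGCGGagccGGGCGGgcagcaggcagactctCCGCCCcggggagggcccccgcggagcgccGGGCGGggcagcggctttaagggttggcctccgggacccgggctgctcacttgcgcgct
The windows of *Igf1*, *Igfbp3*, *Igfbp5*, *Igfbp6* and the upstream start of *Igf2* held no match. For *Igfbp5* and *Igfbp6* the GC content was 51.6% and 54.8%, against a median of 51.2% over all promoters. It was 68.8% for *Igfbp4* and 74.4% for *Igfbp7*.

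The genes most like each ligand over the 9 libraries were sought by Pearson's r of log2 counts scaled to library size, among tested genes with a mean of at least 5 TPM. For *Igf1* they were *Utrn* (r = 0.998; utrophin), *Col8a1* (r = 0.997; a collagen chain) and *Ntng1* (r = 0.996; a netrin relative). *Col8a1* averaged 346 ± 7.78 TPM in Fb-Epn, 1683 ± 37.6 TPM in Fb-Par and 332 ± 12.7 TPM in Fb-Skn. For *Igf2* they were *Actr1b* (r = 0.995), *Sh2b3* (r = 0.995) and *Nr1h3* (r = 0.994). *Nr1h3*, a nuclear receptor for oxysterols, averaged 8.95 ± 0.934, 54.5 ± 3.05 and 3.93 ± 1.06 TPM in the same order. As the libraries fall into 3 types, r mostly records the order of the types, and 253 of 10570 genes for *Igf1* and 261 of 10571 for *Igf2* had r above 0.95.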

How the data were processed

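RNA was sequenced as poly(A)-selected, paired-end libraries from a kit that keeps strand. Per the submitters' processing notes and the study's methods, the authors used Trimmomatic 0.38 for trimming and HISAT2 2.1.0 for alignment to rn6. The notes also name FastQC 0.11.7 and featureCounts 1.6.3. The annotation release and the strand setting are not given in the sources used here. The authors deposited raw counts per gene, TPM values and FPKM values. The deposited TPM follow from the deposited counts with 1 length per gene. The deposited FPKM do not, and served only as an alternative.

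Counts were tested with edgeR 4.0.16 (R 4.3.3) after filterByExpr, which kept 13273 of 32883 genes, and TMM scaling (factors 0.955 to 1.03). All 9 libraries entered 1 quasi-likelihood model with 3 contrasts. The step was tested on simulated data. The common coefficient of variation was 8.25%. Replicate pairs differed by more than sampling noise (chi-square per degree of freedom 3.18 to 5.45). Intervals and floors cover counting or library spread only.

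Named genes were the 10 members. From other lists, those called with a log2 fold change beyond 1 in either direction in at least 1 comparison and the most abundant of each list over all libraries were named, with the 3 genes most like each ligand. Other genes named (for position, as a marker, as a count of 0, *Plagl1*, or the growth hormone axis besides *Jak2*) were chosen after their values were seen. The members and lists were chosen with earlier results of these data known. Listed symbols were matched by symbol or by Entrez number in RefSeq (GRCr8). *Irs4*, *H19*, *Meg3*, *Peg10*, *Foxd3* and *Pecam1* were not matched and *Gnas* was listed more than once; they were not analysed here. The sum of the Schwann cell list is not reported here. Alternatives were other scalings, filters, units and tools (limma 3.58.1, DESeq2 1.42.0), a replicate block and each library left out.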

Additional observations from a re-analysis of the deposited data

How the results depend on the processing

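Of 30 differences (10 genes in 3 comparisons), 24 kept their direction and their side of the adjusted p threshold under every alternative run. Over 594 values, 555 did so, 26 lost the call (*Igf2* and *Igf1r* between Fb-Epn and Fb-Skn, *Igf1r* between Fb-Epn and Fb-Par) and 13 changed sign, each in a difference that was not called. For *Igf1*, Fb-Epn over Fb-Skn became 0.0324 with scaling by library size only, 0.0809 with limma on log2(TPM + 1), 0.0825 on log2(TPM + 0.1) and 0.0427 on log2(FPKM + 1). For *Igf2r* in the same comparison the values were 0.0687, 0.116, 0.117 and 0.0678, then 0.00328 with at least 10 counts in every library, 0.0285 without Fb-Epn 3 and, with no change of sign, -0.0754 without Fb-Epn 2. For *Igf1r*, Fb-Par over Fb-Skn became -0.0036 with upper-quartile factors, -0.0262 without Fb-Par 1 and -0.0994 without Fb-Skn 1, and 0.0775, the same sign, without Fb-Skn 3. The scale itself moved: on log2(TPM + 1) the median difference over all tested genes was 0.13 for Fb-Epn over Fb-Skn and 0.12 for Fb-Par over Fb-Skn. With library size only, the median log2 fold changes were 0.09 and 0.08. The cause was not tested.

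Requiring at least 10 counts in every library left 1 gene with a log2 fold change beyond 2 between Fb-Epn and Fb-Par in place of 3, since *Igf2* and *Igfbp2* were then not tested. Over all genes, such calls fell from 1120 to 319 (Fb-Epn against Fb-Skn), from 860 to 344 (Fb-Epn against Fb-Par) and from 1133 to 373 (Fb-Par against Fb-Skn). With limma on log2(TPM + 1) they were 580, 421 and 576, and on log2(FPKM + 1) 395, 281 and 390. *Igfbp3* between Fb-Par and Fb-Skn lay close to the limit of 2, ranging from -2.05 to -1.87. On log2(FPKM + 1), 3, 2 and 4 of the 10 genes lay beyond 2 in place of 4, 3 and 5, without *Igfbp2* in the comparisons of Fb-Epn. Leaving out 1 library gave 6 to 8, 9 to 10 and 8 genes called in the 3 comparisons. In FPKM the ligand sums were 24.8, 58.4 and 23.9 in Fb-Epn, Fb-Par and then Fb-Skn and the binding protein sums 758, 1216 and 638. Dividing TPM by the TMM factor gave binding protein sums of 1681, 2773 and 1497 TPM, and leaving out *Igfbp7* gave 1104, 1279 and 393 TPM.

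With the replicate number as a block, 7, 10 and 8 genes were called in the 3 comparisons, 4, 3 and 5 of them beyond 2, and 29, 25 and 31 of the other pathway genes. The block ended the call of *Igf2* between Fb-Epn and Fb-Skn (adjusted p = 0.01) and no other call among the 10 genes. The numbers did not pair the libraries: same-numbered libraries had correlations of their deviations from -0.0804 to 0.0198, with 0 of 9 above 0.1. Depth limited *Igf2* outside Fb-Par and *Igfbp2* throughout. Nerve and skin came from different rats and sites, at most 2 rats stood behind 3 libraries, and cell makeup was read only from markers in bulk RNA; protein levels, protease activity and ligand release were not measured.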
